A study of Mus musculus with 22 samples.

Results

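The genes described here are 7 heat shock chaperones, measured with 10 probe sets in whole lungs of Swiss Webster mice: Hspe1, Hspd1, Hsph1, Hspa8, Hsp90aa1, Hspb1 and Dnajb1. They were chosen by gene symbol, taking each probe set that the platform annotation gives to 1 of these symbols alone. The Affymetrix Mu11K chip set holds 13046 probe sets other than controls and names 6118 genes by 1 symbol; 7 of the 10 probe sets are on chip A and 3 on chip B, and no further probe set names one of these genes beside another gene. Normal, untreated lungs were taken at 11 ages: embryonic days E12, E14, E16 and E18, postnatal days P1, P4, P7, P10, P14 and P21, and adult. Each age was 1 pool of RNA from at least 3 lungs, hybridised once to chip A and once to chip B, so no age has a replicate.

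Chaperones bind unfolded proteins and help them to fold, to enter organelles or to be degraded. Their genes were first known for induction by heat through heat shock factors, which bind repeats of the unit GAA in alternating orientation, but several of them are also expressed at high levels in growing cells without stress. In the mouse, the lung branches and proliferates in the embryo, its air spaces thin before birth, and its alveoli form in the weeks after birth.

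Values are signal intensities on a linear scale, each summarising the probes of 1 probe set on 1 array. The 2% trimmed mean was 500.1 to 500.2 on the chip A arrays and 498.3 to 498.9 on the chip B arrays. The brightest signals differed more on chip B, where the maximum was 35736 at E12 and 11989.5 in the adult, than on chip A, where it lay between 11669 and 14285. All 10 probe sets exceeded the median signal of their chip on all 11 arrays. A signal depends on the probes as well as on the RNA, so levels are compared between ages and not between genes, and in whole lungs fewer cells of a type cannot be told apart from less RNA per cell. Sftpc, a marker of the alveolar surfactant cell, read from 629.6 in the adult to 10931 at E16. Ager, a marker of the flat alveolar cell, was 167 or lower at E12 and E14, 2477 at E16 and 8153 to 10546 from E18 on. The other lung markers kept differed from these. Sftpd, a surfactant protein, was at most 80.6 up to E16, 1636 at E18 and highest in the adult (6642), where Sftpc was lowest. Scgb1a1 lay between 1391 at E16 and 5234 at E18, and Nkx2-1 was dim, from 51.4 at E12 to 283 at P1.

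In the embryo 5 of the 7 chaperones were high at E12 and E14 and lower by E18, Hspb1 moved the opposite way, and Dnajb1 stayed within a narrow range. The 8 ages from E18 to adult were compared with the 3 ages from E12 to E16 by limma on log2 signals, with Benjamini-Hochberg adjustment over the 4130 genes kept and a threshold of 0.05. Hspe1, Hspd1, Hsph1, Hspa8 and Hsp90aa1 fell, Hspb1 rose, and Dnajb1 did not pass. Among all genes kept 21.0% were called lower and 23.4% higher in this comparison. Ages are not replicates: the error is the scatter of the pools within each group of ages, and p-values from it may be too small. The division between E16 and E18 was chosen with earlier results of these data known, which placed the largest step there. Its calls are therefore partly set in advance, as is its contrast with other groupings of the ages.

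**Figure D1:**
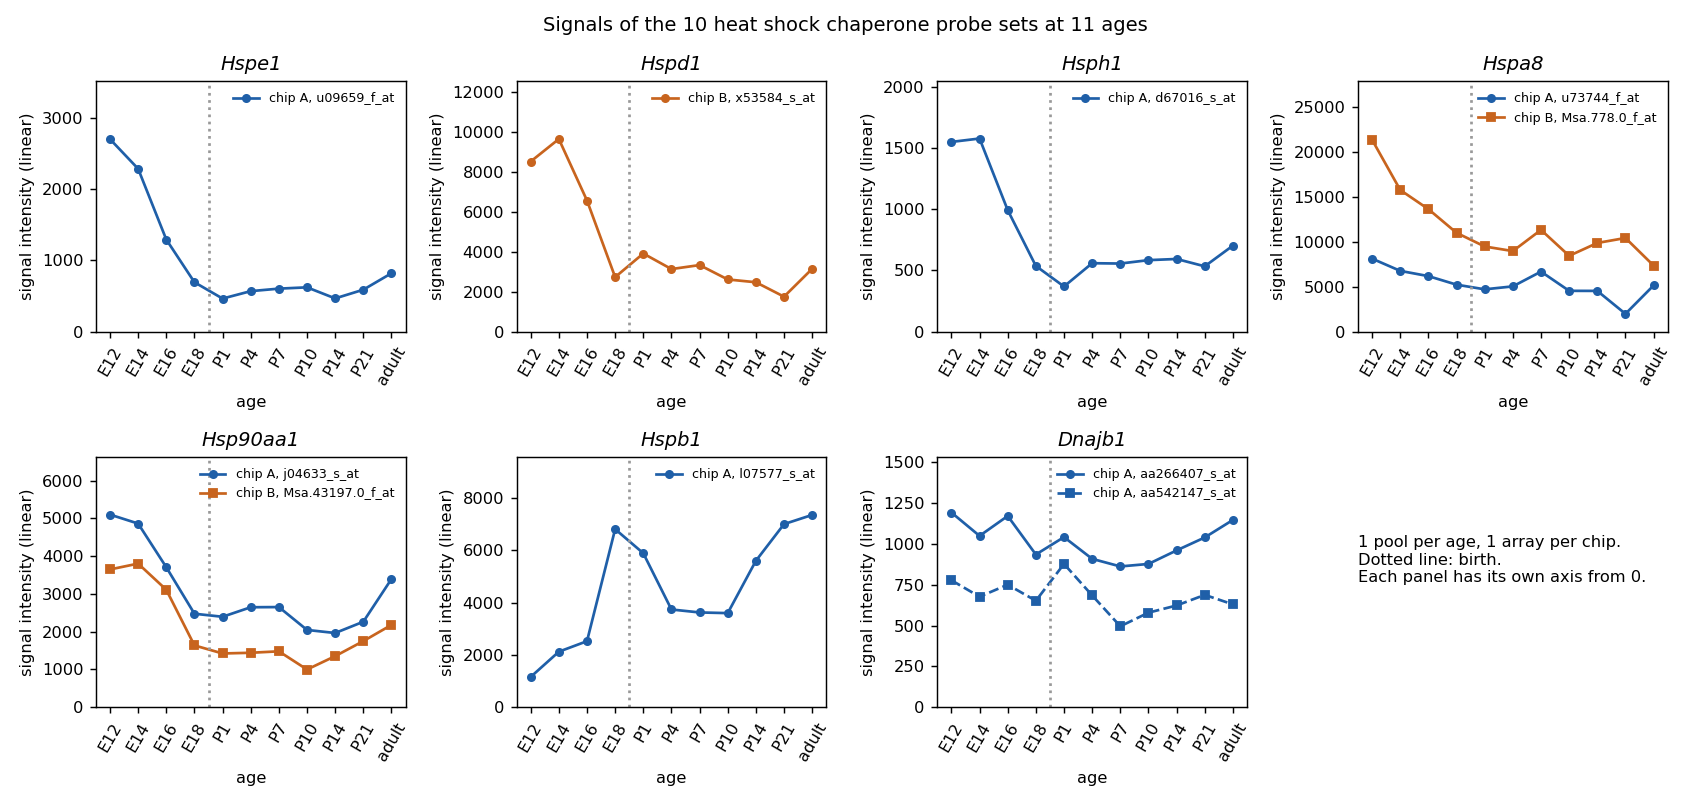
Signal intensity (linear, each axis from 0) of the 10 probe sets by age, 1 panel per gene and 1 point per pool and array, with chip A in blue and chip B in orange and birth as a dotted line. Hspe1 went from 2704 at E12 to 692 at E18, while Hspb1 went from 1159 to 6816.

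Hspe1 and Hspd1 encode the mitochondrial chaperonin, HSP60 being the folding chamber and HSP10 its lid. The 2 genes lie head to head on chromosome 1, and the RefSeq windows from 250 bases before to 50 bases after their starts share 285 bases. The Hspe1 window is shown because it holds the heat shock element common to this pair; capitals mark the 3-unit motif GAANNTTCNNGAA, found on both strands in matches that overlap each other, the first of them beginning 89 bases before the start. It lies on the plus strand of GRCm38.p6 at chr1:55087898-55088197.
Hspe1 promoter: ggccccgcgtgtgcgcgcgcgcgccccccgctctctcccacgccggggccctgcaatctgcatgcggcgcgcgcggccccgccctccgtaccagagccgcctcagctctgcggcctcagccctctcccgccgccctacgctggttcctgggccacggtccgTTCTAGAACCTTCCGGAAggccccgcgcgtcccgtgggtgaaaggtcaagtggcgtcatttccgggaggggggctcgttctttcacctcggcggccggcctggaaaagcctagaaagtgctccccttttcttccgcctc
The overlapping Hspd1 window, chr1:55087883-55088182 on the minus strand, holds the same letters read from the other strand, and a separate Hspd1 window upstream on that strand, chr1:55088194-55088493, holds none. Of 32817 mouse promoter windows in the RefSeq table, 0.603% hold this motif on either strand. A match describes the letters only and shows no binding in these lungs.

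The signal of Hspe1 (chip A) was 2704 at E12, 2287 at E14, 1293 at E16 and 692 at E18. Over the 7 postnatal ages it lay between 463 at P1 and 819 in the adult, with a median of 587. Each of the 3 earliest pools was above every later pool. The difference, E18 to adult minus E12 to E16, was -1.75 ± 0.23 on the log2 scale (limma estimate ± SE, Benjamini-Hochberg adjusted p = 0.000144), the steepest of the 7 genes.

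Hspd1 (chip B) was 8515 at E12, 9643 at E14, 6561 at E16 and 2724 at E18. After birth it ranged from 1745 at P21 to 3908 at P1, with a median of 3128. The early and later pools did not overlap here either, and the log2 difference was -1.53 ± 0.22 (limma, adjusted p = 0.000245). Between E16 and E18 the signal went down 2.41-fold, and with each gene read from its brightest probe set Hspd1 was the 1 chaperone of the 7 to go down at least 2-fold between neighbouring ages; 5.98% of all genes kept went down at least 2-fold at that step, which has no test with 1 pool on each side. The partners then parted from E18 to P1, where the Hspe1 signal was 0.669 of its E18 value and the Hspd1 signal 1.43 times its own. Across the 11 ages the log2 signals of the pair correlated with r = 0.877. This describes the same 11 pools for both genes, read on different chips and arrays.

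Hsph1, Hspa8 and Dnajb1 belong to the cytosolic HSP70 machine. Hspa8 is the constitutive HSP70, which binds clients and hydrolyses ATP; Dnajb1 is a J-domain protein that delivers clients and stimulates that hydrolysis; Hsph1, an HSP110, exchanges the nucleotide so that the client is released. RefSeq windows were at hand for Hsph1 and Dnajb1. The Hsph1 window, on the minus strand of GRCm38.p6 at chr5:149636287-149636586, is shown for comparison with the chaperonin promoter; capitals mark the 3-unit motif, which begins at base 37 after the start, and a 2-unit match to TTCNNGAA that begins 33 bases before it. A further RefSeq window of Hsph1 overlaps this one and holds the same matches.
Hsph1 promoter: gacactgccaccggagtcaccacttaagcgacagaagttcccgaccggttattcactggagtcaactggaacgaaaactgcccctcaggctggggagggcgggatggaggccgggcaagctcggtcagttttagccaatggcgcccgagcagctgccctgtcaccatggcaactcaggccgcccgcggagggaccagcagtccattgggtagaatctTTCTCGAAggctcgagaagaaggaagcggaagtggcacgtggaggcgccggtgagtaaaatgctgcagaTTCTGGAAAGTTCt
TTCNNGAA, which reads the same on both strands and also occurs within the 3-unit match, was present in 8.51% of all promoter windows. The 2 windows of Dnajb1 held none of the 3 heat shock motifs searched.

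The signal of Hsph1 (chip A) was 1548 at E12, 1575 at E14, 991 at E16 and 535 at E18. Postnatal pools ran from 368 at P1 to 701 in the adult, with a median of 558. All later pools were below all 3 early ones, and the log2 difference was -1.30 ± 0.19 (limma, adjusted p = 0.000336). The P1 pool stood apart at the bottom of the postnatal range. That pool also carried some thymocyte transcripts, Cd3d at 795 and Rag1 at 805 against at most 115 and the floor of 72.3 at the other ages. Not every gene of that list was raised in P1, where Dntt read 83.9 and Ptcra was at the floor. The part of the thymocyte transcripts in the low Hsph1 signal was not tested.

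Hspa8 was measured on both chips, and the probe sets differed in how far they moved. On chip B, whose brighter set stands for the gene, the signals were 21364 at E12, 15771 at E14, 13636 at E16 and 10997 at E18, then 7347 in the adult to 11328 at P7, with a postnatal median of 9475. The 3 early pools exceeded all later ones, the largest embryonic step being from E12 to E14 (1.35-fold), and the log2 difference was -0.80 ± 0.17 (limma, adjusted p = 0.00247). On chip A the signals were 8120.1, 6757, 6172 and 5221 at the 4 embryonic ages and 1969 at P21 to 6677 at P7 after birth, with a median of 4700.3. There the P7 pool reached above the E16 pool, so the groups overlapped, and in a fit of all 7745 kept probe sets the difference of -0.63 ± 0.29 was not called (limma, adjusted p = 0.104; 19.7% of probe sets called lower).

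**Figure D2:**
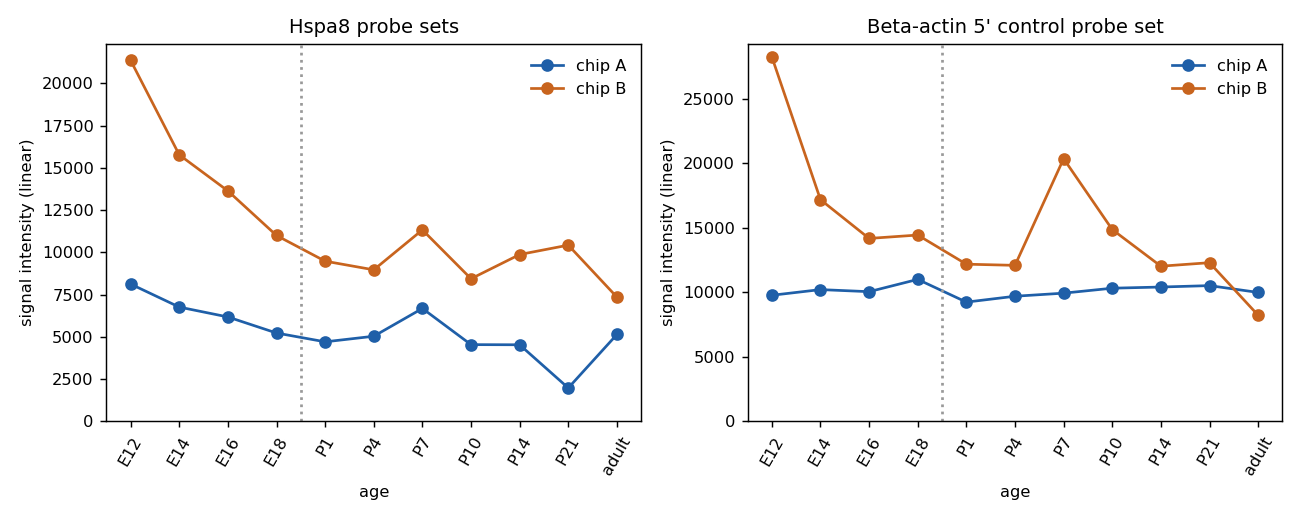
Signal intensity (linear, from 0) by age on chip A (blue) and chip B (orange), 1 array per point, for the 2 Hspa8 probe sets and for the 5' beta-actin control. On chip B both were lower in the adult than at E12, Hspa8 going from 21364 to 7347 and the actin control from 28224 to 8208, while the chip A actin control stayed between 9227 and 10987.

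A control on the chip B arrays moved in the same direction as Hspa8. The 5' beta-actin control of chip B was brightest at E12 (28224) and dimmest in the adult (8208), whereas its chip A counterpart ranged from 9227 to 10987. The ratio of the 3' to the 5' actin control, a sign of RNA and target quality, was 0.935 at E12 and 0.00914 in the adult on chip B, and on chip A it was highest, at 0.899, in the P21 pool and lowest, at 0.200, in P7. The adult value on chip B came with a 3' actin signal of 75.0, beside 6581 for the middle and 8208 for the 5' actin control. That low ratio thus rests on the dim 3' control. The same ratio for the Gapdh controls of chip B was 1.06 at E12 and 0.660 in the adult. The part of these control signals in the chaperone values was not tested. After quantile normalisation of the arrays the Hspa8 difference was -0.30 and was not called (limma, adjusted p = 0.0652). The probe sets correlated with r = 0.507 over the 11 ages and with r = 0.874 over the 10 ages without P21, the pool in which chip A read 1969 and chip B 10424. On chip A this was 2.30-fold below P14 and 2.61-fold below the adult, steps that have no test. The P21 pool had the highest signals of some skeletal muscle and squamous epithelial genes, Acta1 at 8466, Krt4 at 4292 and Lor at 1872. Other genes of these lists were not raised there, such as Krt14 at 358 and Krt10 at the floor. The P10 pool was next for Acta1 (1516) and Krt4 (565). Whether these transcripts bear on the Hspa8 gap was not tested. Both Hspa8 sets, like the Hspe1 set and the chip B set of Hsp90aa1, are of the kind whose probes may match several members of a sequence family, so similar transcripts or pseudogene copies may share these signals.

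Dnajb1 varied least over the ages. Its brighter probe set read 1192, 1049, 1171 and 935 at the 4 embryonic ages and 862 at P7 to 1146 in the adult after birth, with a median of 959.8. Highest and lowest pools were 1.38-fold apart, and early and later pools overlapped. The log2 difference was -0.23 ± 0.12 and was not called (limma, adjusted p = 0.146). The dimmer set ranged from 495 at P7 to 877 at P1, its difference of -0.18 ± 0.16 was not called either (limma over probe sets, adjusted p = 0.393), and the 2 sets correlated with r = 0.654.

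Hsp90aa1 is the inducible cytosolic HSP90, which matures kinases and steroid receptors late in their folding. Its chip A signals were 5102, 4863, 3707 and 2476 from E12 to E18, and the postnatal pools lay between 1965 at P14 and 3395 in the adult, with a median of 2395. The early pools stayed above all later ones, the adult coming closest to E16. The log2 difference was -0.88 ± 0.17 (limma, adjusted p = 0.00160). The chip B set gave 3649, 3803, 3111 and 1637 in the embryo and 998 at P10 to 2179.6 in the adult, with a difference of -1.23 ± 0.20 (limma over probe sets, adjusted p = 0.000669). Both chips moved in the same direction at the division, with r = 0.945 between them over the 11 ages.

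Hspb1 encodes HSP25, the mouse counterpart of human HSP27, a small heat shock protein that holds unfolded clients without ATP and is known for its ties to actin in smooth muscle. Its promoter window, on the plus strand of GRCm38.p6 at chr5:135887669-135887968, is shown for comparison with those of Hspe1 and Hsph1. It holds a pair of 2-unit matches to GAANNTTC, in capitals, which begin 117 and 97 bases before the start, and no 3-unit match. GAANNTTC also occurs within the 3-unit matches of the Hspe1 and Hsph1 windows, while the Dnajb1 windows hold no match. GAANNTTC was present in 7.86% of all promoter windows, on either strand.
Hspb1 promoter: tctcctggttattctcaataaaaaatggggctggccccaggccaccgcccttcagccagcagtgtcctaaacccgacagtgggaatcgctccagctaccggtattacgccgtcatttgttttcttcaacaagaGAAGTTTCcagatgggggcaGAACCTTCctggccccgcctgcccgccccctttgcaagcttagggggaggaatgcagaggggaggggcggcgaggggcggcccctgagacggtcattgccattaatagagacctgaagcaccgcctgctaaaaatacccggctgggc
The signal of Hspb1 (chip A) was 1159 at E12, 2124 at E14, 2527 at E16 and 6816 at E18. After birth it ranged from 3601 at P10 to 7359.7 in the adult, with a median of 5603. No early pool reached any later one. The log2 difference was 1.51 ± 0.30 (limma, adjusted p = 0.00164).

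The rise of Hspb1 was not a single climb. Between E16 and E18 it went up 2.70-fold, a step of at least 2-fold that 8.33% of all genes kept also made upward. It then went down to P10, the E18 pool being 1.89 times the P10 pool, and up again to the adult, which was 2.04 times P10 and 6.35 times E12. The log2 signals of the other 6 genes correlated negatively with those of Hspb1 over the 11 ages (r from -0.833 for Hspd1 to -0.316 for Dnajb1), a description of series that share the same pools.

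**Figure D3:**
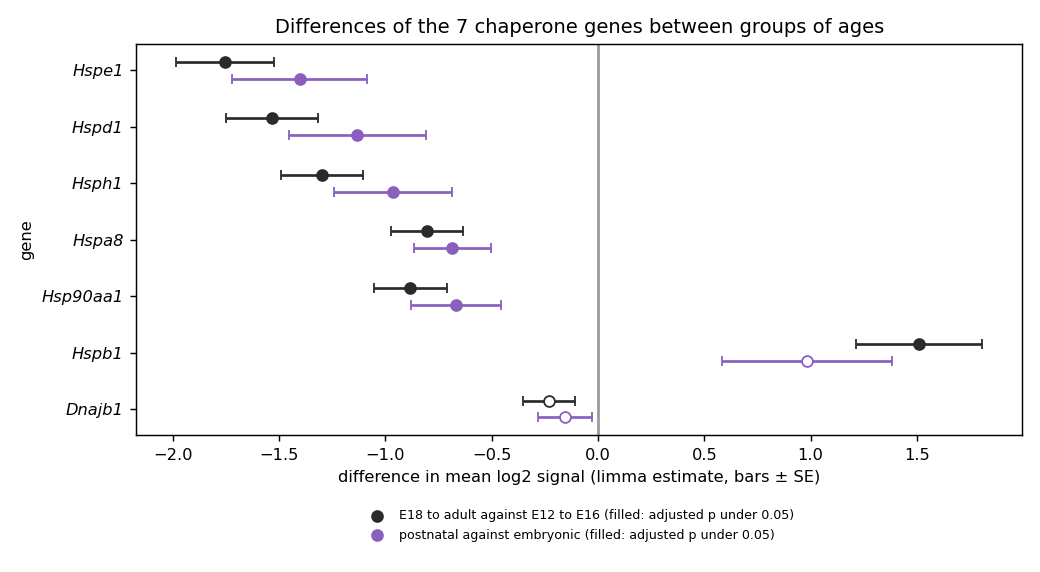
Difference in mean log2 signal (limma estimate, bars ± SE) for each of the 7 genes, E18 to adult minus E12 to E16 in black and postnatal minus embryonic in purple, filled where the adjusted p is under 0.05. Estimates run from -1.75 for Hspe1 to 1.51 for Hspb1, and every gene is closer to 0 in the comparison of eras.

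The comparison of postnatal with embryonic lungs gave smaller differences. When the 7 postnatal ages were compared with the 4 embryonic ages, E18 counting as embryonic, 5 genes were lower, none higher, and 2 not called, against a background of 14.2% of genes lower and 16.8% higher. Hspe1 differed by -1.40 ± 0.32 (limma, adjusted p = 0.00940), Hspd1 by -1.13 ± 0.32 (0.0212), Hsph1 by -0.96 ± 0.28 (0.0225), Hspa8 by -0.68 ± 0.18 (0.0167) and Hsp90aa1 by -0.67 ± 0.21 (0.0333). Hspb1 gave 0.98 ± 0.40 (limma, adjusted p = 0.0780) and Dnajb1 -0.15 ± 0.13 (0.374). In none of the 10 probe sets were the embryonic and postnatal pools apart, whereas in 7 of 10 the pools up to E16 were apart from those after. Read by gene from the brightest set, every member but Dnajb1 lay apart at that division, Hspb1 upward and the others downward. Over all genes kept, also read from the brightest set, 17.9% lay apart downward and 17.3% upward there, and 4.72% and 7.24% between the eras. Without the E12 pool or without the E14 pool 1 of the 7 genes was called between the eras. Without the E16 pool 3 were called, and without E12 and P7 together 0 (limma, with 5 of the 7 at an unadjusted p under 0.05). At the division 6 were called in each of these fits. All genes kept showed the same contrast. Between the eras 5.16% were lower without E12, 4.24% without E14, 8.69% without E16 and 3.63% without E12 and P7. The shares lower at the division in these fits were 15.04%, 15.6%, 19.9% and 14.8%. Without E18 Hspb1 was called between the eras as well (1.46, limma, adjusted p = 0.00270). Hsp90aa1 was also not called without P1, P10, P14 or P21, with adjusted p from 0.0516 to 0.0644.

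Step by step, the median change of the 7 genes on the log2 scale was -0.07 between E12 and E14, then -0.39 to E16 and -0.58 to E18, where the median of all genes kept moved by 0.00, 0.00 and 0.06. At the last of these steps 6 of the 7 genes were lower, and 45.7% of all genes were. Across birth, from E18 to P1, the median of the 7 was -0.21 with 5 of the 7 lower, beside -0.04 and 53.8% for all genes kept; the Hspe1 and Hsph1 signals were 0.669 and 0.687 of their E18 values. From P1 on the median of the 7 stayed within a narrow band until the adult. From P21 to the adult it went up by 0.40 with 6 of the 7 genes higher, beside -0.02 and 52.3% lower for all genes kept. The adult pool was the highest postnatal one in 5 of the 7 genes and in 6 of the 10 probe sets, a count that was not made over all genes kept. Hspa8 on chip B was the opposite, its adult pool being the lowest of all 11.

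A straight line on the order of the ages called 4 genes as falling and Hspb1 as rising, against 19.7% of all genes falling and 22.1% rising. The slopes per age step on the log2 scale were -0.20 ± 0.04 for Hspd1 (limma, adjusted p = 0.00261), -0.19 ± 0.06 for Hspe1 (0.0172), -0.11 ± 0.03 for Hspa8 (0.00572), -0.10 ± 0.03 for Hsp90aa1 (0.0382) and 0.19 ± 0.05 for Hspb1 (0.00893). Hsph1, at -0.12 ± 0.05, was not called (limma, adjusted p = 0.0600), nor was Dnajb1 at -0.02 ± 0.02 (0.574). Without the E12 pool only Hspd1 and Hspa8 were called on the line, and without E14 the slope of Hspe1 was not called (limma, adjusted p = 0.0634). The slope of Hsp90aa1 was not called without any 1 of E12, E14, E16, P7, P10, P14 and P21 (adjusted p from 0.0508 to 0.173), and that of Hsph1 was called without E18, P1 or the adult (adjusted p from 0.0184 to 0.0367). A curve with 3 degrees of freedom, which allows a drop followed by a plateau, called 6 of the 7 genes, all but Dnajb1, where 42.2% of all genes kept were called (limma, adjusted p from 0.000359 for Hspe1 to 0.00704 for Hsp90aa1).

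Related chaperones were taken from lists of 8 kinds, and 64 of their genes were kept. At the division between E16 and E18, 26 of the 64 were lower and 6 higher (limma), with a median log2 difference of -0.37, beside 0.04 for all genes kept. Of all genes kept 21.0% were called lower and 23.4% higher, the shares against which the count of each list stands. The lists differed widely around that median.

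The cytosolic chaperonin, which folds actin and tubulin, and prefoldin, which hands it those clients, moved with the falling genes. Of 10 subunits kept 9 fell and 1 did not pass, with a median of -1.18. On chip A alone 4 of 4 fell, where 23.4% of the 3077 genes kept on that chip fell. Cct6a went from 2329 at E12 and 2388 at E16 to 799 at E18 and 614 in the adult, a difference of -1.64 ± 0.17 (limma, adjusted p = 4.85e-05). Cct8 differed by -1.49 ± 0.23 (0.000400) and Cct2 by -1.34 ± 0.21 (0.000487). Cct6b, which is known as a testis form, was the subunit that did not pass, at -0.39 ± 0.36 (limma, adjusted p = 0.418).

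Among 8 genes of HSP90 and its partners 3 fell and 5 did not pass, with a median of -0.53, where 21.0% of all genes kept fell. Stip1, which bridges HSP70 and HSP90, dropped from 1062 at E12 to 411 at E18 and 314 in the adult (-1.53 ± 0.19, limma, adjusted p = 0.000103). Fkbp4, an immunophilin of steroid receptor complexes, differed by -1.21 ± 0.18 (0.000350), and Pih1d1, a subunit of an HSP90 adaptor complex, by -0.90 ± 0.22 (0.00501). Of 2 relatives of HSP70 and HSP110 kept, Hspa4, another HSP110, fell by 1.14 (SE 0.17, limma, adjusted p = 0.000261), and the other did not pass.

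Of 14 J-domain proteins and exchange factors 3 fell, 1 rose and 10 did not pass at the division, with a median of -0.16, and 6 were called by the curve over all ages. For all genes kept the shares were 21.0% lower, 23.4% higher and 42.2% called by the curve. The counts lower and by the curve were thus near those of any genes, and the count higher was below. Dnajc2, which works at the ribosome, differed by -1.06 ± 0.14 (limma, adjusted p = 0.000198) and Bag2, an exchange factor that inhibits ubiquitylation of clients, by -0.77 ± 0.12 (0.000428). Dnajc3, a J-domain protein of the endoplasmic reticulum, rose by 0.83 ± 0.14 (limma, adjusted p = 0.000779), from 882 at E12 to 2175 in the adult. Without the P21 pool 2 genes of this list were called higher, beside 23.2% of all genes kept.

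In the mitochondrion, the compartment of Hspe1 and Hspd1, 8 of 12 genes of import and protein quality fell and 4 did not pass, with a median of -0.66. The share that fell among all genes kept was 21.0%. Timm8a1, a small chaperone of the intermembrane space, fell by 1.58 (SE 0.19, limma, adjusted p = 0.000102), and Timm23, the channel of the inner membrane, by 0.90 (SE 0.14, adjusted p = 0.000440). Tomm70a, a receptor of the outer membrane, fell by 0.93 (SE 0.30, adjusted p = 0.0251). Without E12 5 of the 12 were called lower, without E14 also 5, and without both E12 and P7 4. Without E12 the Tomm70a difference was -0.80 and was not called (limma, adjusted p = 0.111), nor was it without E14 (adjusted p = 0.0765).

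Folding genes of the endoplasmic reticulum did not follow: of 15 kept 2 fell, 2 rose and 11 did not pass, with a median of -0.20 (1 fell without E14, 4 fell with the arrays centred on their medians, and 1 fell and 1 rose without E12 and P7). Both counts in the main fit were below the shares of all genes kept, 21.0% lower and 23.4% higher. The shares lower were 15.6% without E14, 22.8% after median centring and 14.8% without E12 and P7, with 17.0% higher in the last. Hspa5, the HSP70 of that compartment, differed by -0.60 ± 0.14 (limma, adjusted p = 0.00462) and Pdia6, a disulphide isomerase, by -0.56 ± 0.19 (0.0320), which was not called without E14 (adjusted p = 0.164) or without E16 (0.0691). Herpud1, which is known for its part in degradation from this compartment, rose by 1.00 ± 0.25 (0.00654). The 1 gene kept of the heat shock factor list, Hsbp1, which binds heat shock factor, differed by 0.00 ± 0.17 (limma, adjusted p = 0.992).

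The other small heat shock proteins moved the way of Hspb1, 3 of 4 rising, with a median of 0.78, though 1 of 4 was called without the E14 pool. In the main fit 23.4% of all genes kept rose, and without E14 17.7% did. Cryab, alpha B-crystallin, went from 200.4 at E12 to 577 at E16, 2119 at E18 and 3804 in the adult, a difference of 3.31 ± 0.30 (limma, adjusted p = 2.19e-05). Hspb2, the neighbour of Cryab and a small heat shock protein of muscle, rose by 0.95 ± 0.26 (0.00967), a call that was lost without E14 (adjusted p = 0.0692). Cryab and Hspb2 are expressed in heart and skeletal muscle, and 6 of 8 heart muscle markers were also higher from E18 on, their summed signal going from 6297 to 7279 at E12 to E16 to between 11597 and 21200.3 later; the part of this in the small heat shock proteins was not tested.

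**Figure D4:**
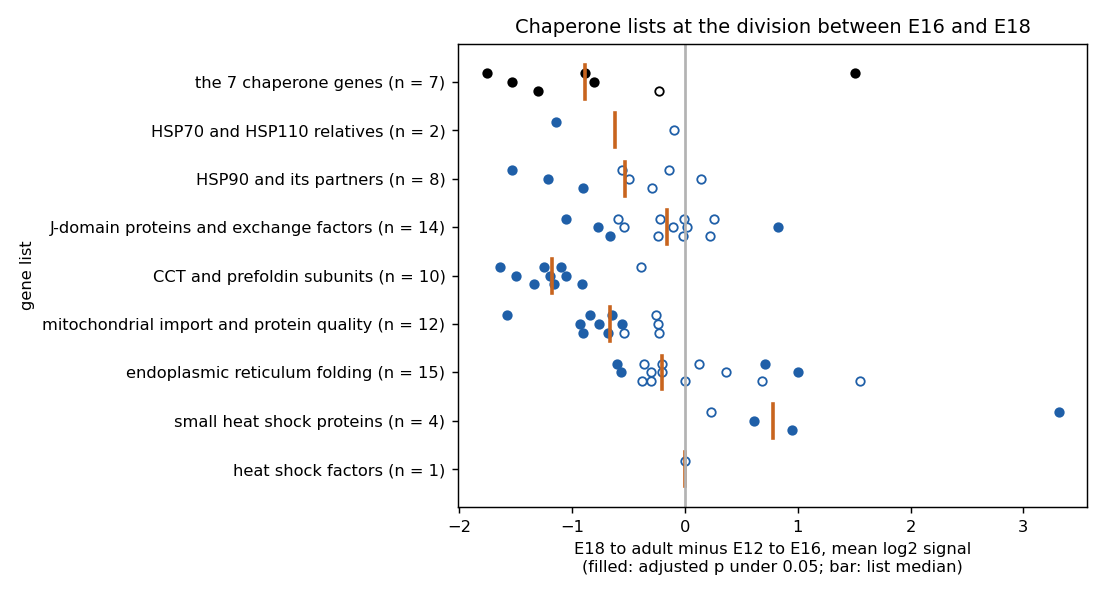
Log2 difference, E18 to adult minus E12 to E16, of each kept gene in the 7 chaperones (black) and in 8 related lists (blue), filled where the adjusted p is under 0.05, with the list median as a bar. CCT and prefoldin subunits lie lowest with a median of -1.18, and the small heat shock proteins highest with 0.78.

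Several other gene groups moved at the same ages, where 21.0% of all genes kept were called lower and 23.4% higher. All 22 cell cycle genes kept were lower from E18 on, with a median of -1.84 and a summed signal of 38936 to 43877 before and 6478 to 22443 after. Over the 11 ages the cell cycle median correlated with r = 0.873 for Hspd1, 0.852 for Hspa8, 0.797 for Hspe1, 0.764 for Hsph1, 0.749 for Hsp90aa1, 0.276 for Dnajb1 and -0.906 for Hspb1. After birth the cell cycle median went from -0.49 at P1 to 0.35 at P4 and -1.41 in the adult, relative to the mean of all ages. The median of the 7 chaperones, Hspb1 and Dnajb1 included, was -0.23, -0.26 and 0.01. Single genes differed from P1 to P4: Hsph1 changed by 0.60 on the log2 scale, Hspe1 by 0.29 and Hsp90aa1 by 0.14. Over the same step Hspd1 changed by -0.32, Hspa8 on chip B by -0.08, Hspb1 by -0.66 and Dnajb1 by -0.20. Immediate early genes, which respond within minutes to handling of tissue among other stimuli, were higher in 16 of 17 (10 without E12), with summed signals of 7891 to 9335 before and 15897 to 47410.3 after. Without E12 17.6% of all genes kept were called higher. Of 7 erythroid genes 3 were lower, with 7758 to 45787 before and 5078 to 12066 after, Hbb-y, an embryonic globin, being at the floor at 8 ages. Of 5 lung markers 3 were higher, with 3533 to 15069 before and 16848 to 28842 after. The part of any of these groups in the chaperone signals was not tested.

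The remaining marker lists had medians of 0.35 for skeletal muscle, 0.19 for squamous epithelium, 0.76 for thymocytes and -0.83 for liver at the division. Beside their counts, 21.0% of all genes kept were lower there and 23.4% higher. Of 11 skeletal muscle genes 1 was lower and 3 higher (1 higher without E12 or without E14). Of 7 squamous epithelial genes 0 passed (limma, with 0 at an unadjusted p under 0.05). Of 3 thymocyte genes 2 were higher, calls that were lost without E12 or without E14, and of 5 liver genes 1 was lower, a call that was lost without E14, with 2 lower without E18, P1 or P21. Of all genes kept 17.6% were higher without E12 and 17.7% without E14. The share lower was 15.6% without E14, and 20.6% to 21.4% without E18, P1 or P21. The summed signal of skeletal muscle was 24445 in P21 and 4857 to 11066 elsewhere, and that of squamous epithelium 8818 in P21 and 2748 to 4236 elsewhere. Thymocyte genes summed to 2684 in P1 and to 402 to 1499.8 at the other ages.

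**Figure D5:**
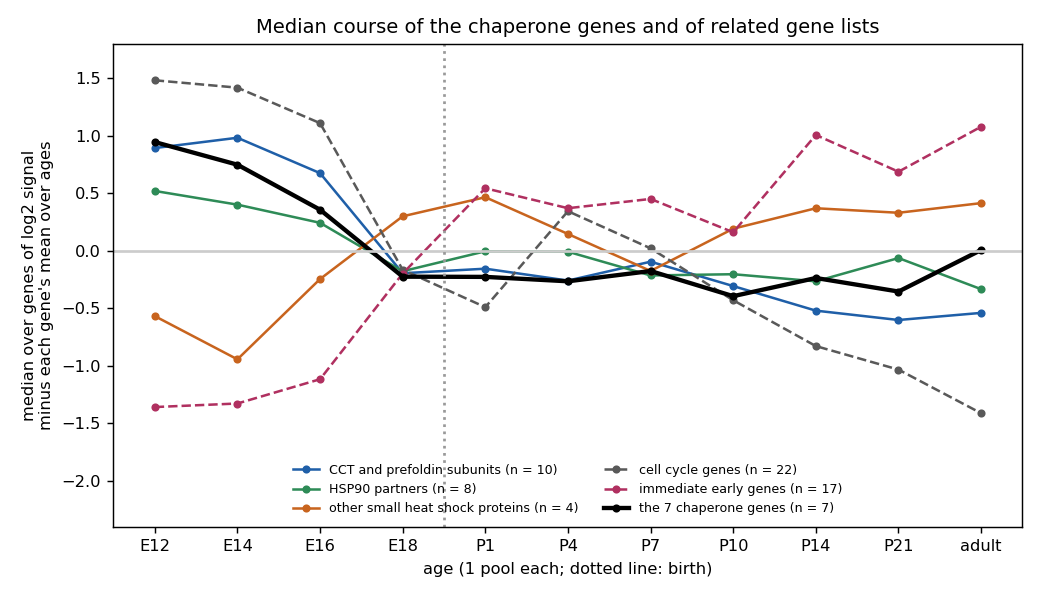
Median over genes of log2 signal minus each gene's mean over ages, by age with 1 pool each, for the 7 chaperones (thick black) and 5 gene lists, with birth as a dotted line. The chaperone median goes from 0.95 at E12 to -0.22 at E18 and then stays between -0.39 and 0.01, while the cell cycle median reaches 0.35 at P4 and -1.41 in the adult.

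The genes with the courses most like each chaperone were ranked by Pearson's r of log2 signals over the 11 ages among the 4130 genes kept, as a description. For Hspe1 these were Pkm (r = 0.974), Cbx5 (0.974) and Fkbp4 (0.972), and for Hsph1 they were Hspa4 (0.978), Fkbp4 (0.970) and Psmd7 (0.958). Hspd1 was followed most closely by Dnaja2 (0.988), Gcsh (0.980) and Ubqln2 (0.969). For Hspa8 the 3 were Cherp (0.968), Naa15 (0.956) and Mrpl30 (0.956), and for Hsp90aa1 they were Nelfe (0.949), Acvr2b (0.939) and Eif2b1 (0.937). Rnf181 (0.980), Il10rb (0.979) and Cd82 (0.975) were nearest to Hspb1. Dnajb1, whose range was small, had the lowest values, with Ldhb (0.899), Ivns1abp (0.864) and Elovl6 (0.854). Among the 7 themselves the closest pair was Hspe1 and Hsph1 (r = 0.965), followed by Hspe1 and Hsp90aa1 (0.946).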

How the data were processed

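RNA of 11 ages (10 µg per target) was hybridised to 22 arrays, 1 of each of 2 chips per age. The deposited tables hold 1 signal intensity per probe set and array, made by the authors; the sources used here do not state how probes were summarised and scaled. The members, the gene lists and the division between E16 and E18 were chosen with earlier results of these data known. Chip A and chip B values of an age were treated as 1 pool. Signals were floored at the 25th percentile of each chip (72.3 on chip A, 47.3 on chip B) and put on a log2 scale. Genes above the chip median on at least 2 arrays were kept, each represented by its brightest probe set: 4130 of 6118 genes with 1 symbol. Platform symbols named the probe sets. Fits used limma 3.58.1 in R 4.3.3 with Benjamini-Hochberg adjustment at 0.05, over all genes kept, and were tested on simulated data. Named genes were all 7 members, up to 3 called genes per list with the largest slope (or the largest 1 where none passed), and the 3 genes most correlated with each member; other names were chosen after their values were seen. Alternatives changed the floor, filter, normalisation, gene summary and variance trend, and left out each age. The number of arrays limits the precision. Promoter windows came from RefSeq (GRCm38.p6) and were found for 5 of 7 genes.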

Additional observations from a re-analysis of the deposited data

Results flagged for a closer look

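Of 20 sets of embryonic or postnatal signals checked, 10 probe sets in both eras, 2 held a pool far from the others by Dixon's criterion, which chance meets in about 1 in 20. The P1 pool of Hsph1 read 368, below the other 6 postnatal pools, which lay between 532 and 701. The P21 pool of Hspa8 on chip A read 1969, with the other postnatal pools between 4525 and 6677; the chip B set read 10424 in the same pool.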

How the results depend on the processing

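At the division between E16 and E18, 6 of the 7 chaperones were called when any 1 age was left out (6 to 6). Along the age order 5 were called, 3 after quantile normalisation, 2 without E12 and P7 (chosen after seeing the data) and 2 to 6 when 1 age was left out. Between the eras 5 were called, none (0) without E12 and P7 and 1 to 6 when 1 age was left out, Hspb1 being called without E18 (1.46, adjusted p = 0.00270). The curve called 6, or 5 to 6 when 1 age was left out, 5 after quantile normalisation, 7 with no filter and 4 without E12 and P7. No chaperone changed direction in any alternative run. Under quantile normalisation and median centring the 7 related lists other than the heat shock factors kept the sign of their median difference. After quantile normalisation all 4 calls of Hspa8 were lost, and on chip A alone (chosen after seeing the data) its division was not called (-0.63, adjusted p = 0.0867). Hsbp1, never called, changed sign to -0.0073 after quantile normalisation, -0.023 after median centring and -0.0090 without E12 and P7, and lay between -0.14 and 0.16 when 1 age was left out. Between the eras the counts over all genes, 586 lower and 695 higher, were 175 and 342 without E14, 213 and 379 without E12, 359 lower without E16, 883 lower without E18, and 150 and 274 without E12 and P7. Along the age order they were 813 and 913, and 509 and 569 without E12 and P7; the curve called 1743 genes, and 1019 without E12 and P7. At the division the counts over all genes were 868 lower and 966 higher. They were 621 and 727 without E12, 644 and 733 without E14, 823 and 948 without E16, and 610 and 702 without E12 and P7. No paired analysis was possible because each age has 1 pool. With 1 pool per age no difference between neighbouring ages can be tested.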

Other observations

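Hspa1a, the stress-inducible HSP70, did not pass the filter on dim signals, and it is named here after its values were seen. Its chip A signal was 17.4 at E12, 62.1 at E14, 62.5 at E16 and 79.4 at E18, and it ranged from 36.5 at P4 to 370 in the adult after birth, where P14 and P21 read 174 and 190.4. The chip median was 250.3, which the adult pool alone exceeded. The floor of 72.3 lies above 4 of its 11 values, so no fold is given. Hspa9, the HSP70 of the mitochondrial matrix, was 259 at E12 and between 118 and 222 at the other ages, and Hsf2, a heat shock factor, was at most 48.7. Neither passed the filter.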
